A study of Macaca mulatta with 8 samples.

Results

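The P2Y and P2X nucleotide receptor genes were followed in rhesus macaque microglia by taking every row of the count files whose gene symbol was 1 of 10 listed receptors. Of these 10 genes, 9 had a row among the 35432 genes counted, 6 of them P2Y genes (P2RY6, P2RY1, P2RY2, P2RY12, P2RY13 and P2RY14) and 3 of them P2X genes (P2RX4, P2RX7 and P2RX1). The RNA of P2RY11 was not analysed here, though the bases before its gene start were searched for motifs. The cells were primary microglia from frontal subcortical white matter of 4 adult animals, the males R07110 (13 years) and R12016 (9 years) and the females R02046 (19 years) and R14143 (6 years). From each donor, 1 culture received 10 µg/mL uLPS over 16 h, that is ultrapure lipopolysaccharide, which engages the pattern recognition receptor TLR4. Another culture of the same donor received 5 µM MRS2578 for 1 h before the same uLPS exposure, so that every library comes from uLPS-exposed cells grown with the growth factor M-CSF and no library shows the receptors at rest. RNA sequencing of these 8 libraries asks here whether an antagonist of P2RY6 changes the RNA of P2RY6 or of the other receptors that sense the same family of nucleotides.

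Cells release ATP, ADP, UTP and UDP when they are stressed or damaged, and P2 receptors sense these nucleotides outside the cell. P2Y receptors are G protein-coupled receptors. P2RY1, P2RY2, P2RY6 and P2RY11 act mainly through Gq, phospholipase C and calcium, whereas P2RY12, P2RY13 and P2RY14 act through Gi. P2X receptors are cation channels that ATP opens directly. In microglia P2RY6 is known as the UDP receptor that promotes phagocytosis, P2RY12 as the ADP receptor that steers processes towards injury and marks resting cells, P2RX4 as a channel of activated microglia, and P2RX7 as the high-ATP channel upstream of the NLRP3 inflammasome. MRS2578 antagonises the P2RY6 protein, so its RNA is no direct measure of the block.

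The receptor genes lie in small clusters of the macaque genome (Mmul_10, RefSeq annotation). P2RY2 and P2RY6 are neighbours on chromosome 14, with 34661 bases and 0 other genes between them, P2RX7 and P2RX4 are neighbours on chromosome 11 with a gap of 22255 bases, and P2RY14, P2RY13 and P2RY12 follow each other on chromosome 2 within the MED12L gene, on the other strand, with 1 other gene between P2RY14 and P2RY13 and 0 between P2RY13 and P2RY12. P2RY6 spans chr14:66294290-66320952 and P2RX4 chr11:121049117-121073696, both on the plus strand, and P2RY12 spans chr2:53497407-53544222 on the minus strand. The coding sequence lies in 1 exon in P2RY6, P2RY1, P2RY2, P2RY12 and P2RY14, as is usual for P2Y receptors, and in 11 to 13 exons in the 3 P2X genes. The 250 bases before the annotated gene start are shown for P2RY6, the receptor that MRS2578 antagonises, at chr14:66294040-66294289, read 5′ to 3′ on the plus strand. No capitals are used because none of the motifs searched was found in this window.
P2RY6: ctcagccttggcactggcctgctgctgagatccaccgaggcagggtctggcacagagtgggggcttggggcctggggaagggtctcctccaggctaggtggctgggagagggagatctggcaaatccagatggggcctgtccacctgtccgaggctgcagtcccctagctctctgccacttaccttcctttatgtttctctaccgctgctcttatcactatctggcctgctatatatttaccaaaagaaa
The P2RY6 window held 3 CpG dinucleotides, against a median of 12 over the windows of all 20782 protein-coding genes, and no GC box (GGGCGG on either strand), which was found in 43.7% of all windows. TATAAA was found in 1 receptor window, that of P2RY12, and in 9.85% of all. GAGGAAGT (a PU.1 site), TGACTCA (an AP-1 site) and GGGNNTTCC (an NF-kappaB site), searched on both strands, were found in 0 of the 10 windows and in 1.79%, 3.07% and 5.28% of all windows. A missing match says only that these letters are not in this window.

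The labels of donor R02046 have to be considered before any comparison. In the gene table that accompanies the study, 6 columns carried the same donor and condition as the deposited library with the same counts, and the 2 columns of R02046 carried the opposite conditions. Values below follow the deposited labels, and the change of each receptor gene with MRS2578 is also given with the R02046 libraries exchanged and without R02046. Total counts ran from 9231109 to 32790348 per library (median 17146885.5), so that a gene with 3 counts, the limit that a count of 0 allows, lies at 0.0915 to 0.325 CPM (a gene's counts scaled to a common library size). This limit covers counting error only. Of 20 microglia markers, 17 had at least 1 CPM in every library, among them CSF1R at 1010 to 1470 CPM and AIF1 at 42.2 to 99.8 CPM. The microglia markers TMEM119, at 0 to 5 counts, and CX3CR1, at 1 to 35 counts, were at or near 0. Markers of oligodendrocytes, astrocytes, endothelial and mural cells summed to 380 to 1060 CPM with uLPS and 414 to 662 CPM with MRS2578, and those of neutrophils, T cells, B cells and platelets to 5.01 to 22.7 and 3.41 to 12.9 CPM, with NKG7 at 0 in all libraries. Less RNA per cell and fewer cells of a type cannot be told apart in such cultures.

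P2RX4 had by far the highest level of the 9 receptor genes, P2RY6 came next, and P2RY12, P2RY2, P2RX7 and P2RY1 followed close to each other. For this order CPM was divided by the exon length of each gene. P2RX4 had a median of 163 CPM per kb (114 to 214 over the 8 libraries) and lay at percentile 97.3 of 10604 genes with a length. It held between 84.7% and 91% of the summed level of the 9 receptors in every library. P2RY6 had a median of 8.98 CPM per kb (6.49 to 14.4), at percentile 53.2, and P2RX4 exceeded it 18.2-fold at the median. The size of this gap depended on the length used. With the longest transcript of each gene it was smaller, with medians of 183 CPM per kb for P2RX4 and 16.5 for P2RY6. The ranges of P2RX4 and P2RY6 did not overlap, nor did those of P2RY6 and P2RY12, and both steps held in 8 of 8 libraries. By exon length P2RY6 was not second in every library. In R12016 P2RX7 was at 6.83 against 6.49 CPM per kb of P2RY6 with MRS2578, and at 6.65 against 6.89 with uLPS. This depended on the length used. With the longest transcript P2RX7 was at 6.83 against 11.91 of P2RY6 with MRS2578 in R12016, and at 6.65 against 12.65 with uLPS.

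The order of the next 4 genes was not settled by the data. P2RY12 had a median of 3.23 CPM per kb (2.04 to 4.76), P2RY2 of 3.07 (1.72 to 3.7), P2RX7 of 3.04 (1.65 to 6.83) and P2RY1 of 2.36 (0.549 to 4.52), and neighbours kept this order in only 5, 4 and 4 of 8 libraries. With the longest transcript as length, P2RY2 came before P2RY12, and the P2RY6 median was 16.5 CPM per kb. P2RX1, P2RY13 and P2RY14 were at the bottom. P2RX1, an ATP channel best known from platelets and smooth muscle, had 67 counts in all, of which 19 and 39 were in the libraries of R12016. P2RY13, an ADP receptor related to P2RY12, had 15 counts over 6 libraries. P2RY14, the UDP-sugar receptor, had 0 counts in 149492650, which allows a level of up to 0.0201 CPM over all libraries.

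**Figure D1:**
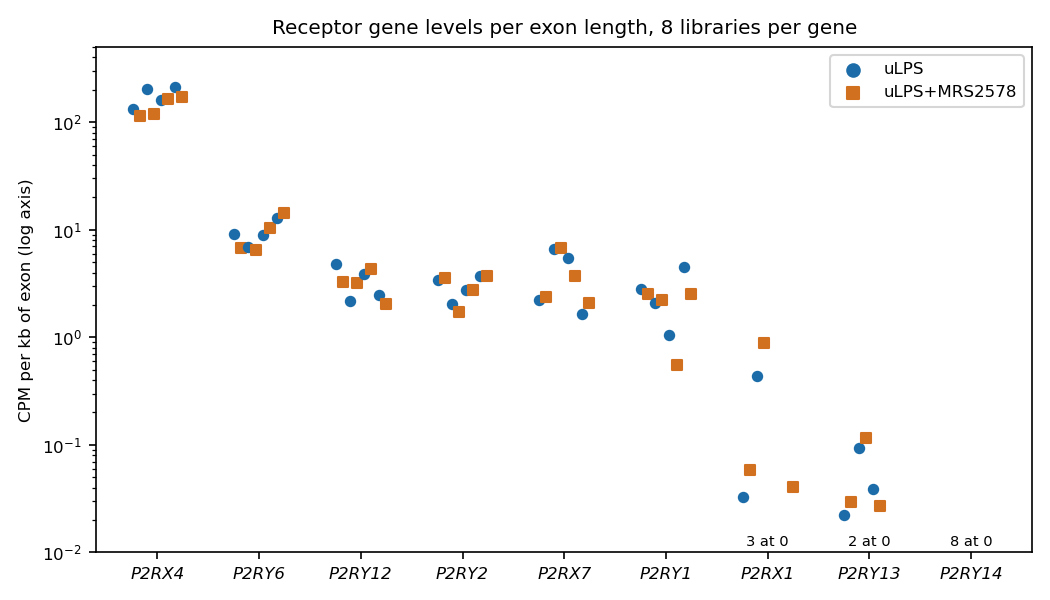
Level of each receptor gene in CPM per kb of exon (log axis) in the 8 libraries, with circles for uLPS and squares for uLPS with MRS2578; libraries at 0 are given as a number at the bottom. P2RX4 lies between 114 and 214 and P2RY6 between 6.49 and 14.4, and the 4 genes beneath them overlap one another. By this length P2RX7 reaches P2RY6 in R12016, at 6.83 against 6.49 CPM per kb with MRS2578. With the longest transcript as length it does not, at 6.83 against 11.91.

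No receptor gene passed the test between uLPS with MRS2578 and uLPS alone. The background of this comparison is 0% of 12131 genes tested as labelled, 0.618% after exchange of the R02046 libraries, and 0% without R02046. The test was edgeR's quasi-likelihood F-test, blocked by animal. In it 6 of the 9 receptor genes passed the filter on low counts (P2RY6, P2RY1, P2RY2, P2RY12, P2RX4 and P2RX7), and 0 of these 6 had an adjusted p under 0.05 under any of these 3 uses of R02046. At an unadjusted p under 0.05 there were 0 with the deposited labels and 1, P2RX4, under each of the other assignments. DESeq2's Wald test also called 0 of the 6. Over all genes in the edgeR test, 624 (5.14%) had an unadjusted p under 0.05 as labelled. This rose to 1995 (16.4%) with R02046 exchanged and 1670 (13.6%) without R02046, so 1 of 6 receptor genes does not set them apart. The median log2 fold change of the 6 genes was -0.04, against -0.01 over all genes tested.

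The difference in P2RY6 RNA between the conditions was smaller than the spread between donors. With uLPS alone it was 69.1 and 52.6 CPM in the males R07110 and R12016 and 67.9 and 98.5 CPM in the females R02046 and R14143 (mean 72 ± 19.2, SD, n = 4). With MRS2578 it was 51.9, 49.5, 79.8 and 109.8 CPM in the same donors (72.8 ± 28.3). It was lower with MRS2578 in the 2 males and higher in the 2 females, and the ranges of the conditions overlapped. The fold change was 0.981 (95% interval 0.795 to 1.21, edgeR adjusted p = 0.986). With R02046 exchanged it was 0.906 (0.76 to 1.08) and without R02046 it was 0.924 (0.736 to 1.16), and a change within these intervals was not detectable with 4 animals. With R02046 exchanged P2RY6 was lower in 3 of 4 donors.

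The other Gq-coupled receptors gave wider or similar intervals. P2RY1, an ADP receptor, had 8.58, 6.44, 3.2 and 13.9 CPM with uLPS in R07110, R12016, R02046 and R14143, and 7.8, 6.76, 1.68 and 7.71 CPM with MRS2578. It was lower with MRS2578 in 3 of 4 donors, at -0.41 on the log2 scale (SE 0.22, edgeR adjusted p = 0.878), and the conditions overlapped. Only 23 and 30 counts stand behind the R02046 values, and with its libraries exchanged the log2 fold change was -0.18 (-0.32 without R02046) and the gene was lower in 2 of 4 donors. P2RY2, a receptor for ATP and UTP, was the steadiest of the 6. It had 14.3, 8.61, 11.7 and 15.6 CPM with uLPS and 14.9, 7.27, 11.6 and 15.6 CPM with MRS2578, a fold of 0.969 (95% interval 0.781 to 1.2). With R02046 exchanged the fold was 0.979 (0.795 to 1.21) and without R02046 it was 0.966 (0.754 to 1.24). Its within-donor log2 differences ran from -0.24 to 0.06.

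Among the Gi-coupled receptors P2RY12 alone could be tested. It had 13.3 and 6.06 CPM in the males R07110 and R12016 and 10.8 and 6.86 CPM in the females R02046 and R14143 with uLPS, and 9.17, 8.91, 12 and 5.7 CPM with MRS2578. It was lower in 2 donors and higher in 2, with within-donor log2 differences from -0.53 in R07110 to 0.55 in R12016, and a fold of 0.972 (95% interval 0.689 to 1.37, adjusted p = 0.99 in edgeR). Its fold was 0.913 (0.666 to 1.25) with R02046 exchanged and 0.922 (0.607 to 1.4) without R02046. P2RY13 had 7 counts over the uLPS libraries and 8 over those with MRS2578, and P2RY14 had 0 in both, so that no difference was detectable for them at this depth.

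P2RX4 was the receptor gene with the lowest unadjusted p. Its level was 311 and 476 CPM in the males R07110 and R12016 and 374 and 497 CPM in the females R02046 and R14143 with uLPS (mean 415 ± 87.6, SD, n = 4) and 264, 274, 384 and 398 CPM with MRS2578 (330 ± 70.5). The MRS2578 library was the lower one of 3 donors and near the uLPS level in R02046, and the ranges overlapped. Its log2 fold change was -0.33 (SE 0.15, 95% interval -0.67 to 0.02, edgeR adjusted p = 0.878). With R02046 exchanged it was lower in 4 of 4 donors, at -0.35 (SE 0.13, adjusted p = 0.229), and without R02046 it was -0.45 (SE 0.14, adjusted p = 0.272). P2RX4 shares 412 exon bases with an uncharacterised gene on the other strand, LOC114670976, and P2RX7 shares 140 with LOC114670975. The library kit keeps the strand, but the strand setting of the counting is not stated, so these counts could hold reads of either gene.

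P2RX7 showed differences between donors that were much larger than those with MRS2578. It had 11.6, 34.9, 28.7 and 8.63 CPM with uLPS in R07110, R12016, R02046 and R14143, and 12.5, 35.8, 19.4 and 10.9 CPM with MRS2578. It was higher with MRS2578 in 3 donors, by 0.04 to 0.34 on the log2 scale, and differed by -0.56 in R02046. The direction of its mean therefore depended on that donor: the log2 fold change was -0.02 (SE 0.17) as labelled, 0.25 (SE 0.13, adjusted p = 0.383, edgeR) with R02046 exchanged and 0.15 (SE 0.13) without R02046. P2RX1 had 19 and 39 counts in the uLPS and MRS2578 libraries of R12016, and 0 to 4 counts in every other library.

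**Figure D2:**
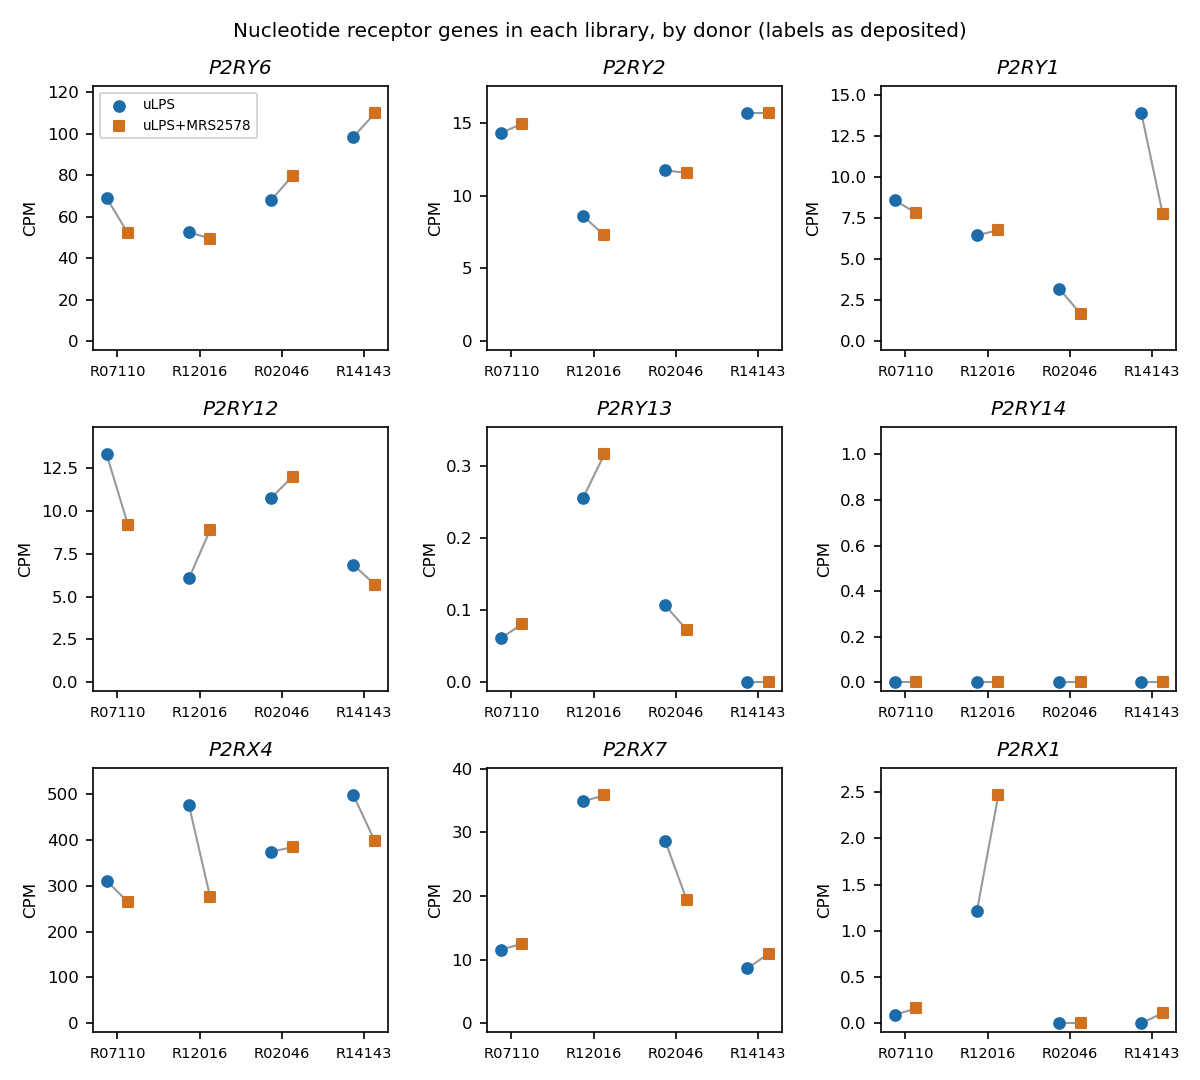
CPM of each receptor gene in the libraries of the 4 donors, with circles for uLPS, squares for uLPS with MRS2578 and a line joining the libraries of a donor; each panel has its own linear axis from 0. P2RY6 is highest in R14143 (98.5 and 109.8 CPM), P2RX7 in R12016 (34.9 and 35.8 CPM), and P2RX1 is above 4 counts in R12016 only.

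**Figure D3:**
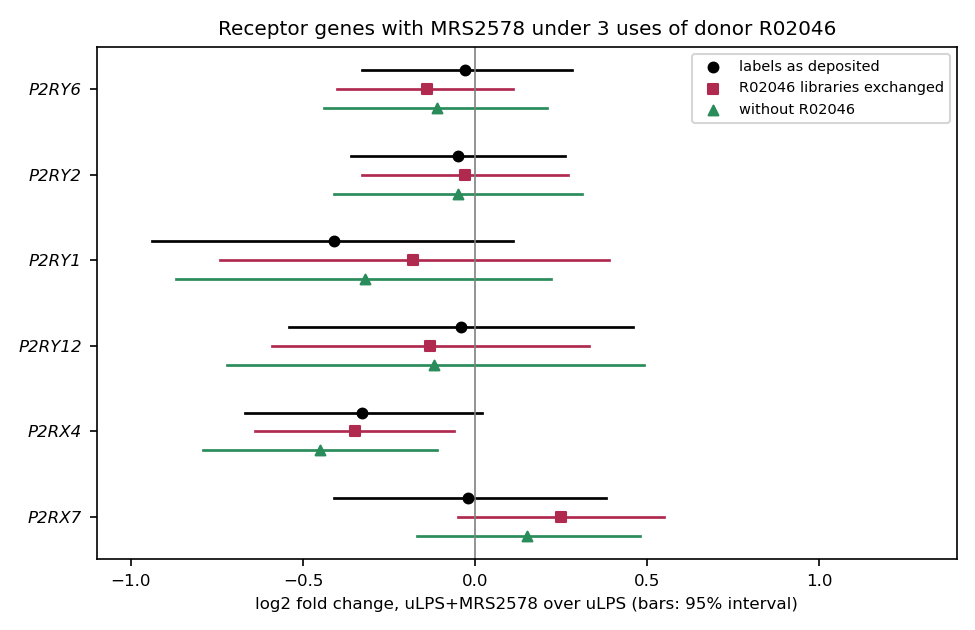
Log2 fold change with MRS2578 for the 6 receptor genes tested, with 95% intervals, for the deposited labels (circles), with the R02046 libraries exchanged (squares) and without R02046 (triangles). The interval of P2RX4 spans 0 with the deposited labels (-0.67 to 0.02) and lies below 0 under the other assignments, and the P2RX7 estimate moves from -0.02 to 0.25.

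The receptors were also compared with one another, as the within-donor change of 1 receptor minus that of another. None of the 15 pairs could pass 0.05 in an exact sign-flip permutation test over 4 donors, in which the smallest two-sided p is 0.125. With the deposited labels every pair had at least 1 donor against the others, and the lowest p was 0.25 (adjusted p = 0.9375). With R02046 exchanged, 4 pairs had the same sign in all 4 donors (exact p = 0.125, adjusted p = 0.46875). In these P2RX4 changed by -0.61 ± 0.2 (SD) on the log2 scale relative to P2RX7, P2RY6 by -0.4 ± 0.31 relative to P2RX7, P2RY2 by -0.3 ± 0.2 relative to P2RX7, and P2RY2 by 0.31 ± 0.2 relative to P2RX4.

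Several receptors differed between donors. Of the 6 receptor genes, 3 passed an adjusted p of 0.05 when edgeR tested the donor terms, against 7.35% of all 12131 genes, and this test was chosen after the data had been seen. P2RX7 ranged 3.61-fold between the donor means, from 9.83 CPM in R14143 to 35.5 in R12016 (adjusted p = 0.0159). P2RY1 ranged 4.3-fold, from 2.43 CPM in R02046 to 10.45 in R14143 (adjusted p = 0.0432). P2RY6 ranged 2.04-fold, from 51.1 CPM in R12016 to 104 in R14143 (adjusted p = 0.0496). P2RY2 had a range of 1.96-fold and an adjusted p of 0.0596, and P2RY12 and P2RX4 had ranges of 1.8-fold and 1.55-fold at 0.182 and 0.237. These calls rested on few animals: P2RX7 no longer passed without R12016 (adjusted p = 0.0794), P2RY1 did not pass without R02046, where 23 and 30 counts stand behind its low value (adjusted p = 0.32, with donor means of 6.71 to 10.45 CPM in the other animals), 1 receptor gene passed without R07110, R12016 or R14143 in turn, and P2RY6 passed in 7 of 15 alternative fits, P2RY1 in 11 and P2RX7 in 14.

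The order of the donors was not the same for each receptor. P2RY6, P2RY2, P2RY1 and P2RX4 were highest in R14143, the youngest animal, and P2RX7 and P2RY12 were lowest there. The donor means of P2RX7 and P2RY2 ran in opposite order over the 4 animals, with P2RX7 at 35.5, 23.7, 12.1 and 9.83 CPM and P2RY2 at 8.02, 11.8, 14.7 and 15.8 CPM in R12016, R02046, R07110 and R14143, a pattern picked after the values were seen. With R02046 exchanged, 4 of the 6 receptor genes passed, P2RY2 in addition at 0.0281, against 18.9% of all genes. Other brain cell markers summed to 380 and 414 CPM in R07110, 481 and 613 in R12016 and 523 and 662 in R02046 (uLPS and MRS2578). In R14143 they summed to 1060 and 560 CPM, so that only its uLPS library stood apart. COL1A1, 1 of these markers, ran from 41.3 to 511 CPM over the libraries. Microglia markers summed to between 5040 and 7770 CPM, and the part of these marker levels in the donor differences was not tested. Age, sex and donor cannot be told apart with 1 animal of each age. The donor test takes its error from libraries of the same animal, so donor cannot be told apart from cell isolation or culture either.

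Genes with a pattern over the 8 libraries most like that of a receptor were listed for P2RY6, P2RY12 and P2RX7 by Pearson's r of log2 CPM. The libraries come from 4 animals and share these donor differences, so r is a description. For P2RY6 these were FLRT2 (r = 0.981), DENND10 (0.964), DYNC1LI2 (0.963), GPR35 (0.962), a receptor of the same G protein-coupled class, and RIMKLB (0.96). For P2RY12 they were FPR3 (r = 0.965), a formyl peptide receptor of myeloid cells, STX7 (0.929), GSTT2B (0.926), BCAT2 (0.924) and AK5 (0.917), an adenylate kinase. For P2RX7 they included SAP30BP (0.971), EPHB1 (0.958), EVL (0.957) and TAF11 (0.952). No other receptor gene was among those listed.

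The genes around the receptors gave a similar picture, with 0 genes past the threshold in any list with the deposited labels. Of 10 other P2 receptors and relatives, 7 did not pass the filter, among them P2RY4, P2RX2, P2RX3, P2RX5 and P2RX6, and these 7 had 0 to 9 counts per library. The 3 tested ones had negative log2 fold changes: GPR34, a lysophosphatidylserine receptor of microglia, at -0.45 (SE 0.21), P2RY10 at -0.41 (SE 0.25) and P2RY8 at -0.04 (SE 0.48). GPR34 had 69.2 ± 11.7 CPM with uLPS and 55.2 ± 26.6 with MRS2578 (SD, n = 4). With R02046 exchanged GPR34 was at -0.59 and P2RY10 at -0.67, with adjusted p of 0.101 and 0.0928 in edgeR, and without R02046 they were at -0.69 and -0.7.

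Signalling genes below the Gq-coupled receptors had a median log2 fold change of -0.04 over 12 tested of 14, with 5 above 0 and 7 below as labelled. With R02046 exchanged the median was -0.15 and without R02046 it was -0.07, each with 2 above 0 and 10 below. PLCB2, a phospholipase C of blood cells, was at 0.94 (SE 0.45, adjusted p = 0.878), PRKCA at 0.3 (SE 0.11) and GNA15, a G protein subunit of this class, at -0.21 (SE 0.12). Below the Gi-coupled receptors the median over 10 genes was -0.07, with 9 of 10 below 0, and it was -0.12 with R02046 exchanged and -0.14 without R02046, again with 9 of 10 below 0. GNAI1 was at 0.21 (SE 0.38), AKT1 at -0.03 (SE 0.09) and PIK3CG, the kinase subunit that G proteins activate, at -0.25 (SE 0.26). The median over all genes was -0.01 as labelled, 0.001 with R02046 exchanged and -0.004 without R02046. Of all genes tested, 52.1%, 49.8% and 50.5% were below 0 under these assignments.

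For P2X7 and its inflammasome partners the median was -0.01 over 9 tested genes, 4 of them above 0. It was -0.11 with R02046 exchanged, with 2 above 0, and -0.02 without R02046, with 4 above 0. NLRP3, the inflammasome sensor, was at 0.13 (SE 0.18), ANO6, a scramblase, at 0.12 (SE 0.11), and IL1B, the cytokine that the inflammasome matures, at -0.44 (SE 0.38, adjusted p = 0.901 in edgeR). IL1B had 12000 ± 4780 CPM with uLPS and 9340 ± 5060 with MRS2578 (SD, n = 4). Its log2 fold change was -0.7 (adjusted p = 0.221) with R02046 exchanged and -0.76 (adjusted p = 0.405) without R02046. The only adenosine receptor tested with the deposited labels, ADORA2B, was at 0.2 (SE 0.25) and 1.53 to 6.31 CPM, and at 0.23 and 0.26 under the other assignments.

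Enzymes and channels of nucleotide release and breakdown were the pathway group whose calls depended on R02046. Of 12 genes 9 were tested, and 0 passed with the deposited labels. Of these, ENTPD4, a nucleotidase of the Golgi, was at 0.42 (SE 0.15), LRRC8A, a subunit of volume-regulated channels, at 0.37 (SE 0.16) and ADA, which deaminates adenosine, at -0.45 (SE 0.27). With R02046 exchanged, 2 of 9 passed, both lower with MRS2578, against 0.618% of all genes. These were ADA at -0.77 (SE 0.11, adjusted p = 0.0358) and ENTPD1, the surface enzyme CD39 that breaks down ATP and ADP, at -0.69 (SE 0.1, adjusted p = 0.0358). Without R02046 they were at -0.81 and -0.71, with edgeR adjusted p of 0.138 and 0.14.

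**Figure D4:**
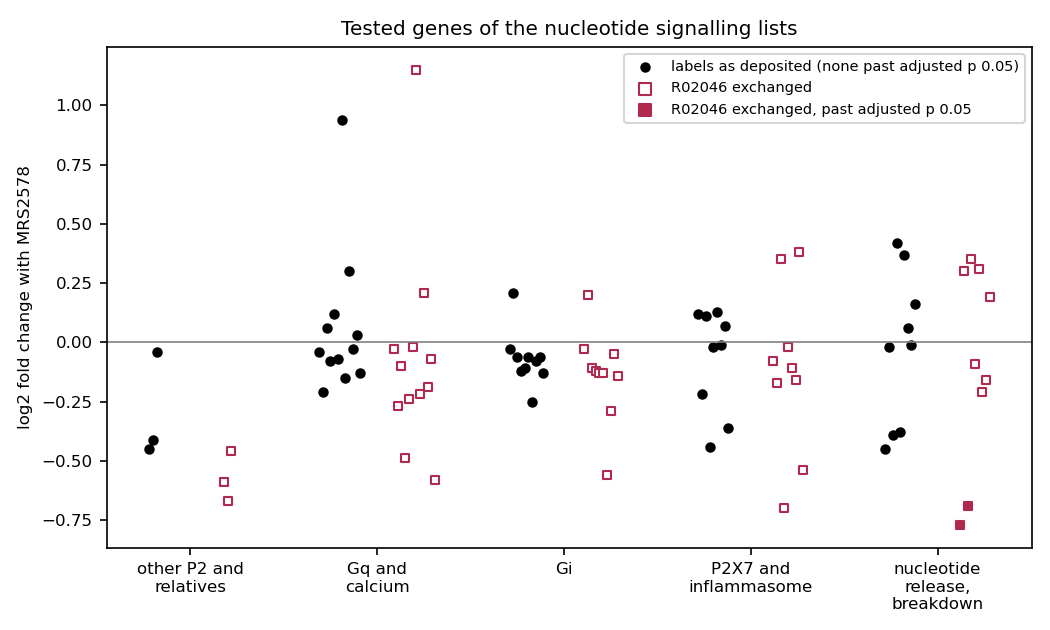
Log2 fold change with MRS2578 of the tested genes in the lists around the receptors, with black circles for the deposited labels and squares for the R02046 libraries exchanged; filled squares passed an adjusted p of 0.05. The filled squares are ADA (-0.77) and ENTPD1 (-0.69).

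Cell type markers and heat shock genes were tested in the same fits. Among the microglia markers 0 of 17 passed, with SALL1 at 0.56, MERTK at 0.34 and GPR34 at the lowest value, -0.45. These were 0.72, 0.41 and -0.59 with R02046 exchanged and 0.83, 0.5 and -0.69 without R02046, and 0 of 17 passed under either. Of the genes listed as platelet markers PPBP was at -1.23 and PF4 at -0.47. PPBP passed with R02046 exchanged (-1.54, adjusted p = 0.0458, edgeR) but not without R02046 (-1.59, adjusted p = 0.138). With R02046 exchanged, 1 of the 2 tested genes of the blood cell and platelet list passed, against 0.618% of all genes. The other platelet markers listed, GP9 and ITGA2B, had only 0 to 6 and 0 to 3 counts per library. Of the other brain cell markers COL1A1 and VWF were at 0.3. SLC1A2, the astrocyte glutamate transporter, passed with R02046 exchanged (-1.22, edgeR adjusted p = 0.0327) but not without R02046 (-1.16, adjusted p = 0.133). With R02046 exchanged, SLC1A2 was the only 1 of 10 tested brain cell markers to pass, against 0.618% of all genes. The astrocyte markers GFAP and GJA1 were at 0.15 and -0.09 in that fit. The 8 heat shock genes tested, which serve as a reference for genes that respond to MRS2578 and were listed with earlier results known, had a median of 1.43 with the deposited labels and 2.11 with R02046 exchanged (2.35 without R02046), with 8 of 8 above 0 and 0 past the threshold under each. DNAJA4 was at 2.62 (SE 1.66), HSPB1 at 2.11 (SE 1.35) and HSP90AA1 at 0.88 (SE 0.47). The largest receptor gene estimate with the deposited labels, -0.41 for P2RY1, was smaller in size than each of these 3.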

How the data were processed

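RNA of 8 microglia libraries, 1 per donor and condition, was read as 1 count file per library. The authors deposited whole-number read counts per Ensembl gene of Mmul_10, without normalization. The paper names fastp, STAR and HTSeq on unique reads within exons, whereas the submitters' processing notes name Trimmomatic 0.30, TopHat2 2.0.14, SAMtools 1.3 and HTSeq 0.6.1p1; the strand setting is not given in the sources used here. The paper and the labels also differ in the dose of M-CSF.

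Counts were analysed in R 4.3.3 with edgeR 4.0.16: filterByExpr with a minimum count of 10, TMM scaling, and the quasi-likelihood F-test (legacy=FALSE) with donor as block, with Benjamini-Hochberg adjustment over all genes tested and a threshold of 0.05. SE was derived from the test statistic and intervals are 95%. CPM was computed after TMM, and its log2 with a prior count of 2. DESeq2 1.42.0 was an alternative. The pairing is by animal, and after subtraction of condition means the 2 libraries of an animal correlated at 0.458 to 0.602 over genes. The lowest chi-square per degree of freedom between 2 libraries was 19.7, so each library was counted as 1 sample. On simulated counts, 197 of 200 changed genes were recovered among 12053 for MRS2578, and 177 of 200 among 12054 for the donor terms. Apart from the changed genes, the simulation gave every donor the same mean, and all genes had the same fixed dispersion. It therefore checks the code and gives no power for the real libraries, whose spread differs. Members and gene lists were chosen with earlier results of these data known.

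All receptors were named. For P2RY6, P2RY12 and P2RX7, the 5 genes with the highest r were added. From each list, genes past the threshold were named, or else the 2 highest and the lowest log2 fold change. Exon lengths, positions and sequences are from RefSeq. The study's ELISA, PCR, siRNA and TUNEL measurements were not used here. Some genes and sequences that these rules select are not reported here.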

Additional observations from a re-analysis of the deposited data

Results flagged for a closer look

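In 22 groups of 4 values (CPM of a receptor in 1 condition, or its within-donor differences), 3 had 1 value set apart from the rest by more than Dixon's critical share of the group's range for 4 samples. Chance flags about 1 in 20 groups of independent, normally distributed values. Groups with counts near 0, or with the same donors in both conditions, are not of that kind, so this rate does not apply to the 22 groups as a whole. P2RX1 stood apart in R12016 under both conditions, at 1.21 CPM with uLPS (next value 0.0913) and 2.46 CPM with MRS2578 (next value 0.162). P2RY1 with MRS2578 stood apart in R02046, at 1.68 CPM against 6.76 CPM for the next donor, with a gap of 0.831 of the range, and the sources differ in the condition of that library.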

How the results depend on the processing

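For MRS2578, 0 of the 6 receptor genes passed in any of 17 alternative fits, with the lowest adjusted p at 0.156 (P2RX4, R02046 exchanged and R14143 left out). P2RX4 was below 0 in all 17, from -0.45 to -0.17. Over all genes the count of 0 became 1 with DESeq2's Wald test, 5 with edgeR's likelihood ratio test, 75 with R02046 exchanged, and 0 to 918 with R02046 exchanged and 1 more donor left out (5 without R12016, 918 without R14143). Each donor left out with the deposited labels gave 0.

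The pairing by animal was also dropped. Without the replicate block P2RY6 turned to 0.01, 0 genes passed (250 in place of 624 at an unadjusted p under 0.05), and with R02046 exchanged 0 genes passed in place of 75 and P2RX7 was at 0.24; no receptor gene was called in either. With total counts as the scaling, which moved the median of all genes from -0.01 to 0.046, the log2 fold changes turned to 0.03 for P2RY6, 0.01 for P2RY2 and P2RY12 and 0.04 for P2RX7. P2RY6 ran from -0.11 to 0.1 with each donor left out (0.1 without R07110), and from -0.25 to -0.05 with R02046 exchanged as well. With each donor left out P2RY2 ran from -0.09 to 0.02 (positive without R12016, where it was 0.04 with R02046 exchanged), and P2RY12 from -0.23 to 0.14 (0.14 without R07110, 0.04 with R02046 exchanged, and 0.04 without R14143), and P2RY1 to 0.11 with R02046 exchanged and R14143 left out. P2RX7 ran from -0.14 to 0.15, at 0.15 without R02046, and was at 0.25 with it exchanged and 0.22 to 0.34 (0.3 without R07110) with a further donor left out. The cause was not tested.

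Between donors the count of 892 genes became 2468 with DESeq2's likelihood ratio test and 2773 with edgeR's likelihood ratio test. It was 2288 with R02046 exchanged, 333 to 909 with each donor left out (421 without R07110, 408 without R14143), and 1090 to 3345 with R02046 exchanged and 1 more left out. Of 6 receptor genes, 1 to 2 passed with each donor left out, and 2 to 4 with R02046 exchanged as well. These fits compare fewer animals. The donor test with its alternatives, edgeR's earlier quasi-likelihood estimation and the longest transcript length (P2RY6 at 16.5 CPM per kb in place of 8.98) were chosen after seeing the data. Total counts limit P2RY13, P2RY14 and P2RX1, which could not be compared at 0 to 39 counts per library; without a filter on low counts P2RX1 was at 1.04 and P2RY13 at 0.19 (adjusted p = 0.879 and 0.977).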
